A study of Mus musculus with 6 samples.

Results

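The 10 genes described here encode receptors for foreign or misplaced nucleic acids, or proteins that act directly beside such receptors. They were chosen by symbol and are Ddx58, Ifih1, Dhx58, Mavs, Zbp1, Tlr3, Eif2ak2, Adar, Trex1 and Aim2. All 10 symbols were found, each on 1 row, among the 26595 genes of the table. All 10 passed the filter on low values, a mean of at least 0.5 FPKM (fragments scaled by transcript length and by the mapped fragments of the library). RNA was measured in 3 libraries of HT22 cells exposed to interleukin 17 (IL-17) and in 3 libraries of HT22 cells given no special treatment, the controls. HT22 is an immortalised mouse line of hippocampal neuronal origin. Both groups are labelled wild type and were grown in the same medium with serum, and the dose and duration of IL-17 are not given in the sources used here. The submitters give the link between IL-17 and the JAK1-STAT6 pathway as their aim. No label says that libraries of a group came from separate cultures, so p-values reflect variation among the libraries sequenced, and this may be technical only.

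Double-stranded RNA in the cytosol is bound by the helicases RIG-I (gene Ddx58) and MDA5 (Ifih1), which signal through the mitochondrial adaptor MAVS to kinases that switch on type I interferon. LGP2 (Dhx58) is a related helicase that lacks the signalling domains of both. Many of these genes are themselves induced by interferon, through the factor ISGF3, which binds DNA elements called ISREs. Not every gene of the set encodes a cytosolic sensor. Tlr3 encodes a receptor for double-stranded RNA in endosomes, Mavs an adaptor, Adar an RNA editing enzyme and Trex1 an exonuclease that removes cytosolic DNA.

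The promoter sequences below show where an ISRE core lies in 3 of the genes, and the promoter of Aim2, the 1 gene with higher values in every IL-17 library than in any control. RefSeq windows on GRCm38.p6, from 250 bases before to 50 bases after an annotated start, were matched for 8 of the 10 genes (11 windows). Zbp1 and Dhx58 had no entry. The ISRE core was searched on both strands as GAAA, any 2 bases, and GAAA again. It was found in 3.443% of all 32851 windows and in those of Ddx58, Ifih1 and Eif2ak2. Capitals mark the ISRE core in the first 3 windows, and in Eif2ak2 also, further upstream, the GAS element (the site of STAT dimers, searched as TTC, any 3 bases, and GAA). All 4 are written 5′ to 3′ on the strand of the gene. They lie at chr4:40239776-40240075 (minus strand) for Ddx58, chr2:62646206-62646505 (minus) for Ifih1, chr17:78882523-78882822 (minus) for Eif2ak2 and chr1:173420354-173420653 (plus) for Aim2.
Ddx58: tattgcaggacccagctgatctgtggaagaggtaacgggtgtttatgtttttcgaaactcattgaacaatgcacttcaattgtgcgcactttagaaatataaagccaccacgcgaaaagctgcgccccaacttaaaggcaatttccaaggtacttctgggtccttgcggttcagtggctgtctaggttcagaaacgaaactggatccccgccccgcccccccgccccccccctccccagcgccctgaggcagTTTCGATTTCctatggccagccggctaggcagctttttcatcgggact
Ifih1: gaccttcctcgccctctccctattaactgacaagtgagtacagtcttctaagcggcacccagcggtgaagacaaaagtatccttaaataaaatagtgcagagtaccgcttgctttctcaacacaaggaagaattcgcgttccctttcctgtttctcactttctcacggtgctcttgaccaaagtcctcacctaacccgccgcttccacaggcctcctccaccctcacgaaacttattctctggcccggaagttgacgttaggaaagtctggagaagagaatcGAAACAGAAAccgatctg
Eif2ak2: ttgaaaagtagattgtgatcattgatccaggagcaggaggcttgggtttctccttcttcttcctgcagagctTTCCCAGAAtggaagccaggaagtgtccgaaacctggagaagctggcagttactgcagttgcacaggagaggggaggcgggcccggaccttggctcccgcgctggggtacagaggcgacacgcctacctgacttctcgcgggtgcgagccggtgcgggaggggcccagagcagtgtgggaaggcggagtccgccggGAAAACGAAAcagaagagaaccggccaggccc
Aim2: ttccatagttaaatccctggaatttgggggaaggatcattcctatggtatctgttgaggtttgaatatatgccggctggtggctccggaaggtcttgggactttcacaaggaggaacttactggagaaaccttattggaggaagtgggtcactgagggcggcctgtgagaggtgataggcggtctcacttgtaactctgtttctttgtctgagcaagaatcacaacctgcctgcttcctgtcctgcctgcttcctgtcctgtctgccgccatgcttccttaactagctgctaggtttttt

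Counted from the annotated start, the ISRE core lay at bases 3 to 12 of Ddx58 on the opposite strand, as TTTCGATTTC, which is the complement read from the other side. It lay at bases 33 to 42 of Ifih1 as GAAACAGAAA and at bases 19 to 28 of Eif2ak2 as GAAAACGAAA. The GAS element was present in 8.298% of all windows, in that of Eif2ak2 from base -178 and in 1 of the 3 windows of Adar. The NF-kB consensus was present in 4.505% of windows, and among these genes in that of Tlr3, from base -211, as GGGAGTTTCC. The ISRE core, GAS and NF-kB motifs did not overlap one another. A match describes these letters and is not evidence of binding. A window without a match may still hold a looser form of an element, which was not searched.

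Of the 10 genes, 5 fell after IL-17, 0 rose and 5 did not pass, by limma at an adjusted p under 0.05 over all 12953 tested genes. The 5 that fell were Zbp1, Dhx58, Ddx58, Ifih1 and Adar. Over all tested genes 0.996% fell and 0.95% rose, 1.95% in either direction. At an unadjusted p under 0.05, 7 of the 10 were lower and 1, Aim2, was higher, against 7.84% lower and 8.89% higher over all tested genes. Every IL-17 value lay below every control value for 7 of the genes, against 10.9% of tested genes, and above for 1, against 13.3%. The median log2 fold change of the 10 genes was -0.43 on the log2(FPKM + 1) scale, where that of all tested genes was 0.02. On this scale the change of a gene with a low value is understated. In bulk RNA, fewer cells that express a gene and less RNA per cell cannot be told apart.

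**Figure D1:**
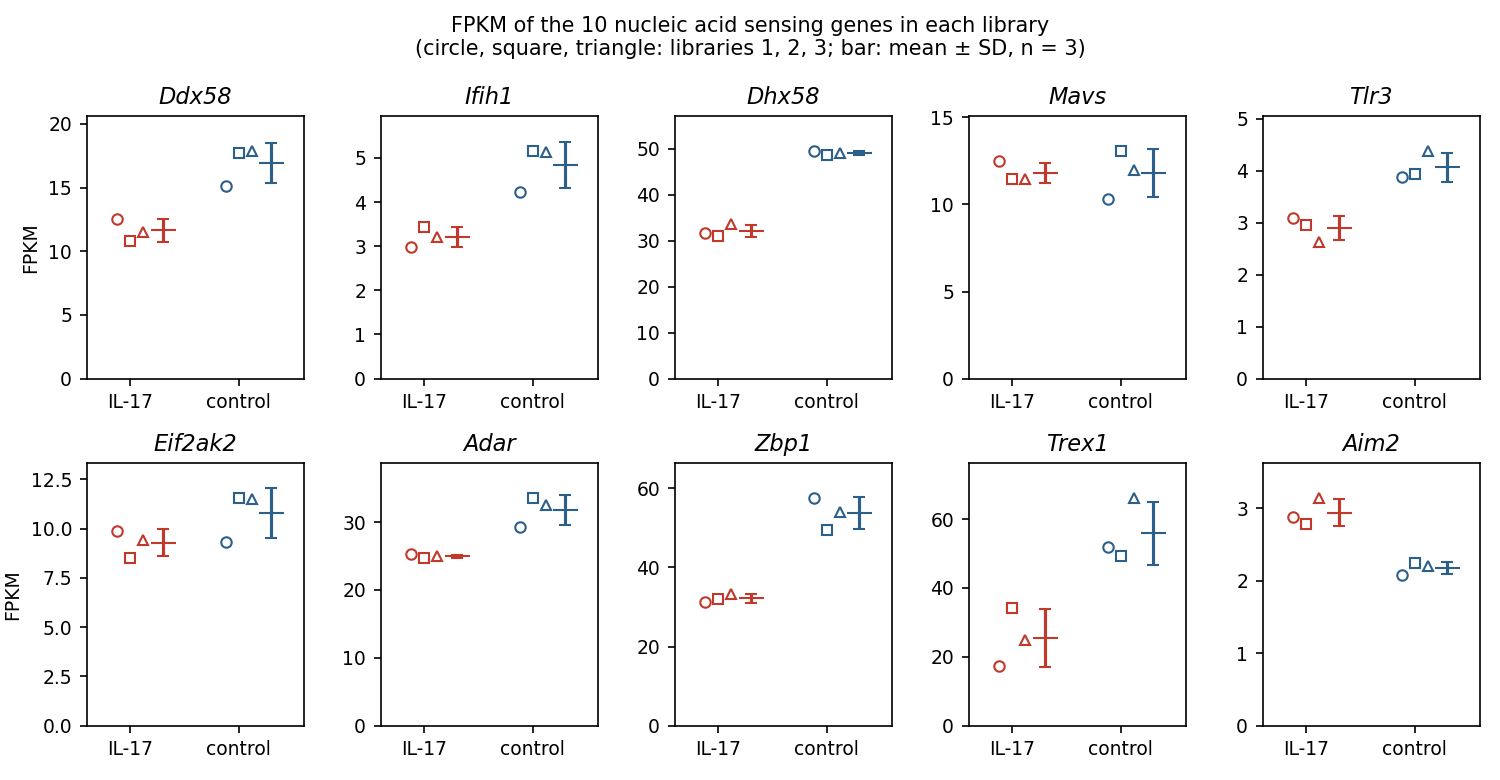
FPKM (vertical axes, each from 0) of the 10 genes in the IL-17 libraries (red, left) and the control libraries (blue, right), with circle, square and triangle for libraries 1, 2 and 3 and the mean ± SD (n = 3) beside them. The groups do not overlap for 7 genes that are lower and for Aim2, which is higher with IL-17, while those of Mavs and Eif2ak2 overlap.

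Of the RIG-I-like helicases, all 3 fell. Ddx58 (ENSMUSG00000040296, chromosome 4, 40203773 to 40239828, minus strand) was at 12.5, 10.8 and 11.5 FPKM with IL-17, against 15.1, 17.7 and 17.9 FPKM in controls. Its log2 fold change was -0.50 (SE 0.08, limma adjusted p = 0.028), with a mean at 68.7% of the control mean. The groups did not overlap, and control library 1 was the lowest control.

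Ifih1 (ENSMUSG00000026896, chromosome 2, 62595798 to 62646255, minus strand), whose product MDA5 favours long double-stranded RNA, stood at a lower level. Its values were 2.98, 3.43 and 3.20 FPKM with IL-17, against 4.23, 5.17 and 5.12 FPKM in controls. The log2 fold change was -0.47 (SE 0.08, limma adjusted p = 0.0392). Again the groups were apart and control library 1 came closest to the IL-17 libraries.

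Dhx58 (ENSMUSG00000017830, chromosome 11, 100694884 to 100704271, minus strand), the regulator without signalling domains, was the most abundant of the 3 helicase transcripts. Values were 31.6, 31.1 and 33.7 FPKM with IL-17, against 49.6, 48.7 and 48.9 FPKM in controls. Its log2 fold change was -0.60 (SE 0.05, limma adjusted p = 0.00155). Libraries within each group lay close together, and the gap between the groups was larger than the spread within them.

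The 3 helicase transcripts kept overlapping proportions to one another. The FPKM ratio of Dhx58 to Ifih1 was 10.6, 9.05 and 10.5 with IL-17, against 11.7, 9.42 and 9.55 in controls (exact two-sided permutation p = 0.9). That of Ddx58 to Ifih1 was 4.21, 3.15 and 3.61 with IL-17, against 3.58, 3.43 and 3.49 in controls (exact two-sided permutation p = 0.7). The ratios of both groups overlapped, which with 3 libraries a group does not show that they are equal.

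Mavs (ENSMUSG00000037523, chromosome 2, 131234063 to 131248025, plus strand), the adaptor shared by RIG-I and MDA5, did not pass. Its values were 12.5, 11.5 and 11.5 FPKM with IL-17, against 10.3, 13.1 and 11.99 FPKM in controls. All IL-17 values lay within the range of the controls. The log2 fold change was 0.005 (95% interval -0.20 to 0.21, limma adjusted p = 0.985), and its sign turned under TMM scaling (-0.03) and quantile normalization (-0.004).

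A ratio to Mavs within a library is not altered by scaling each library with 1 factor, though quantile normalization can alter it. For each of the 9 other genes this ratio did not overlap between the groups, with Aim2 higher and the other 8 lower with IL-17. The share of all tested genes whose ratio to Mavs is apart was not computed, so this count has no background beside it. Among the 8 is Eif2ak2, whose own FPKM overlapped between the groups. Control library 1 was the lowest control for both Eif2ak2 and Mavs. Ddx58 was at 1.00, 0.943 and 1.00 times Mavs with IL-17, against 1.46, 1.35 and 1.49 times in controls, and Ifih1 at 0.239, 0.300 and 0.279 times against 0.409, 0.395 and 0.427 times. By FPKM, the RIG-I transcript was level with that of its adaptor in IL-17 libraries and above it in control libraries. For each of the 9 ratios p was 0.1 by exact two-sided permutation, the smallest that 3 against 3 libraries allow. These ratios were chosen after the values of Mavs had been seen.

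**Figure D2:**
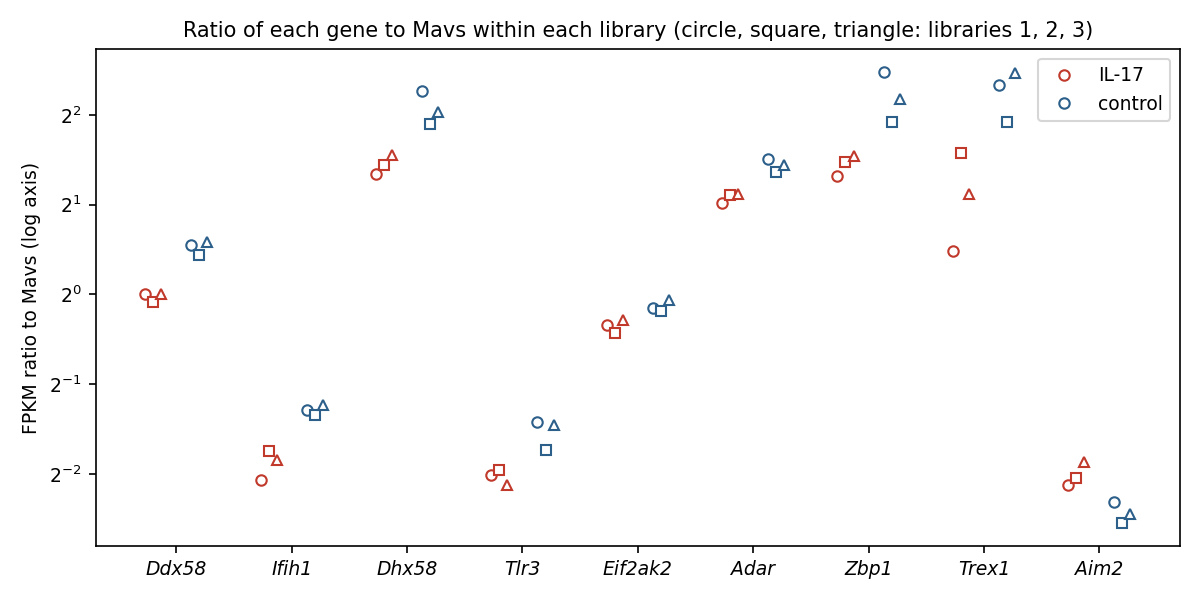
Ratio of FPKM to that of Mavs (vertical log axis) for the 9 other genes in each IL-17 library (red, left of each pair) and control library (blue), with circle, square and triangle for libraries 1, 2 and 3. The red and blue points are apart for every gene shown, with Aim2 the 1 gene whose IL-17 points lie higher. The share of all tested genes with ratios apart was not computed, and these ratios were chosen after the values of Mavs had been seen.

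Zbp1 (ENSMUSG00000027514, chromosome 2, 173206612 to 173218923, minus strand), a receptor for nucleic acids in the left-handed Z form that can start necroptosis through RIPK3, fell. Values were 31.2, 31.9 and 33.3 FPKM with IL-17, against 57.6, 49.5 and 54.1 FPKM in controls. The log2 fold change was -0.72 (SE 0.07, limma adjusted p = 0.00239), the largest decrease among the 5 genes that fell. The groups were far apart, and here control library 1 was the highest control.

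Adar (ENSMUSG00000027951, chromosome 3, 89715022 to 89753446, plus strand) encodes the editor that converts adenosine to inosine in double-stranded RNA and so keeps cellular RNA from being sensed. Its values were 25.2, 24.7 and 24.9 FPKM with IL-17, against 29.3, 33.6 and 32.5 FPKM in controls. Its log2 fold change was -0.33 (SE 0.06, limma adjusted p = 0.041), a smaller decrease than that of Zbp1, which binds Z-form RNA through the same kind of domain. The ratio of Zbp1 to Adar was 1.24, 1.29 and 1.34 with IL-17, against 1.97, 1.47 and 1.67 in controls, without overlap (exact two-sided permutation p = 0.1, the smallest possible). Of the 8118 exonic bases of Adar, 1365 overlap exons of Chrnb2 on the opposite strand, a gene at 0.376 to 0.502 FPKM with IL-17 and 0.369 to 0.492 FPKM in controls.

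The calls for Zbp1 and Dhx58 held in all 17 other settings, while those for Ddx58, Ifih1 and Adar held in 9, 8 and 6 of them. With all 6 libraries the calls of Ddx58, Ifih1 and Adar were lost with no filter (limma adjusted p = 0.108, 0.125 and 0.104), TPM scaling (0.0519, 0.0527 and 0.0888) and a replicate block (0.148, 0.0826 and 0.181). Adar also missed the threshold under quantile normalization (0.0655) and without a trend in the variance (0.0651). Calls were lost on dropping single libraries too. For Ifih1 the limma adjusted p was 0.0823, 0.101 or 0.121 when IL-17 library 1, 2 or 3 was dropped, and 0.146 or 0.147 when control library 2 or 3 was. For Adar it was 0.0711, 0.176 or 0.119 on dropping IL-17 library 1, 2 or 3, and 0.143 or 0.16 on dropping control library 2 or 3. For Ddx58 it was 0.121 or 0.0957 on dropping IL-17 library 2 or 3, and 0.117 or 0.116 on dropping control library 2 or 3. The direction of these genes stayed the same throughout, with log2 fold changes between -0.58 and -0.46 for Ddx58, -0.58 and -0.40 for Ifih1, and -0.39 and -0.29 for Adar.

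**Figure D3:**
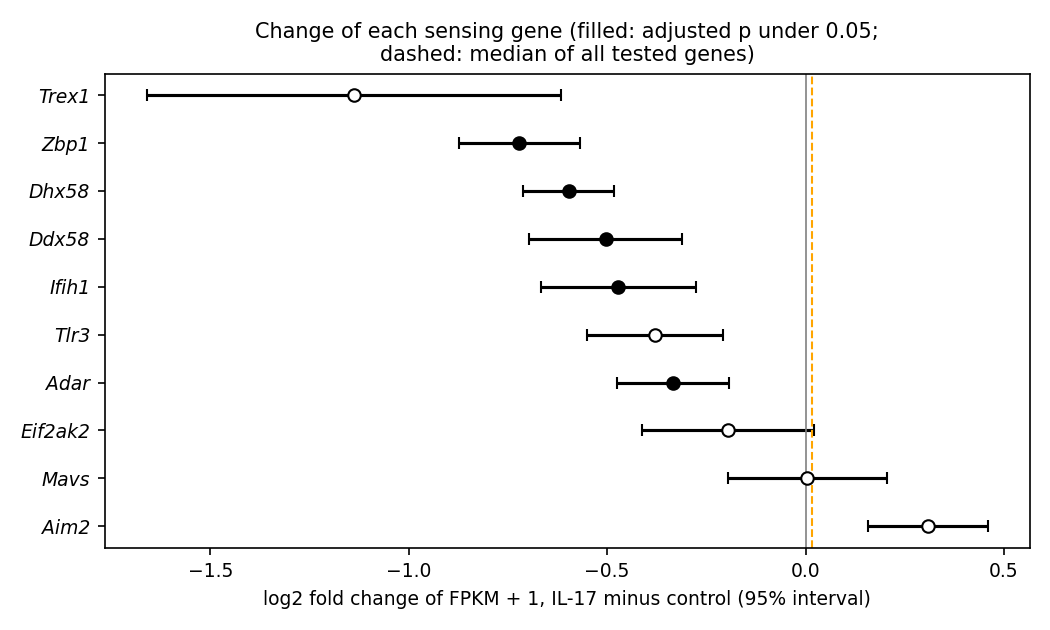
Log2 fold change on the log2(FPKM + 1) scale, IL-17 minus control (horizontal axis), with its 95% interval for each gene, ordered from the lowest. Filled points passed an adjusted p under 0.05, and the dashed line is the median of all tested genes, 0.02; the interval of Trex1 is the widest and those of Mavs and Eif2ak2 include 0.

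Eif2ak2 (ENSMUSG00000024079, chromosome 17, 78852564 to 78882573, minus strand) encodes PKR, a kinase that halts translation once it binds double-stranded RNA. It did not pass, with 9.90, 8.53 and 9.44 FPKM with IL-17, against 9.33, 11.6 and 11.5 FPKM in controls. The groups overlapped through control library 1. The log2 fold change was -0.19 (95% interval -0.41 to 0.02, limma adjusted p = 0.343), and -0.29 without control library 1 (adjusted p = 0.161). Like Ddx58 and Ifih1, Eif2ak2 carries an ISRE core next to its start in the sequences above.

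Tlr3 (ENSMUSG00000031639, chromosome 8, 45395665 to 45411080, minus strand), the endosomal receptor, missed the threshold. Values were 3.09, 2.96 and 2.63 FPKM with IL-17, against 3.87, 3.94 and 4.39 FPKM in controls. The groups did not overlap, with a log2 fold change of -0.38 (SE 0.07, limma adjusted p = 0.0516). It passed with a filter at 1 FPKM (0.0436), TMM scaling (0.0293), quantile normalization (0.0271) and a robust variance prior (0.045), where all settings together gave 0.0271 to 0.224.

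The 2 genes that act on cytosolic DNA lay on opposite sides. Trex1 (ENSMUSG00000049734, chromosome 9, 109057933 to 109059734, minus strand) was at 17.5, 34.3 and 24.9 FPKM with IL-17, against 52.0, 49.4 and 66.3 FPKM in controls. The mean was 45.7% of that in controls, the lowest share of the 10 genes, but the libraries within each group were spread widely. Its log2 fold change was -1.14 (SE 0.22, 95% interval -1.66 to -0.62), and it did not pass (limma adjusted p = 0.0559).

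All 1147 exonic bases of Trex1 lie in exons of Atrip, a checkpoint gene on the same strand, so the value of Trex1 depends on how shared reads were assigned. Atrip was at 7.74, 5.51 and 6.04 FPKM with IL-17, against 7.45, 7.63 and 5.18 FPKM in controls, with overlapping groups. Added together, both genes were at 25.2, 39.8 and 30.9 FPKM with IL-17, against 59.4, 57.0 and 71.4 FPKM in controls. The sums did not overlap (exact two-sided permutation p = 0.1, the smallest possible). As FPKM is scaled by length, such a sum still depends on how shared reads were assigned. Trex1 makes up most of it, so the sum largely repeats the values of Trex1. Trex1 passed in 5 of 17 other settings (limma adjusted p from 0.0235 to 0.193), among them without IL-17 library 1 (0.0489) and without IL-17 library 2 (0.0235). Its log2 fold change was -0.77 when IL-17 library 1 and control library 3 were both dropped.

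Aim2 (ENSMUSG00000037860, chromosome 1, 173350879 to 173466040, plus strand), which binds cytosolic DNA and assembles an inflammasome, was at 2.88, 2.79 and 3.15 FPKM with IL-17, against 2.09, 2.24 and 2.20 FPKM in controls. Every IL-17 value was above every control value. Its log2 fold change was 0.31 (SE 0.06, 95% interval 0.16 to 0.46) and it did not pass (limma adjusted p = 0.0656, and 0.0599 to 0.256 over the other settings).

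**Figure D4:**
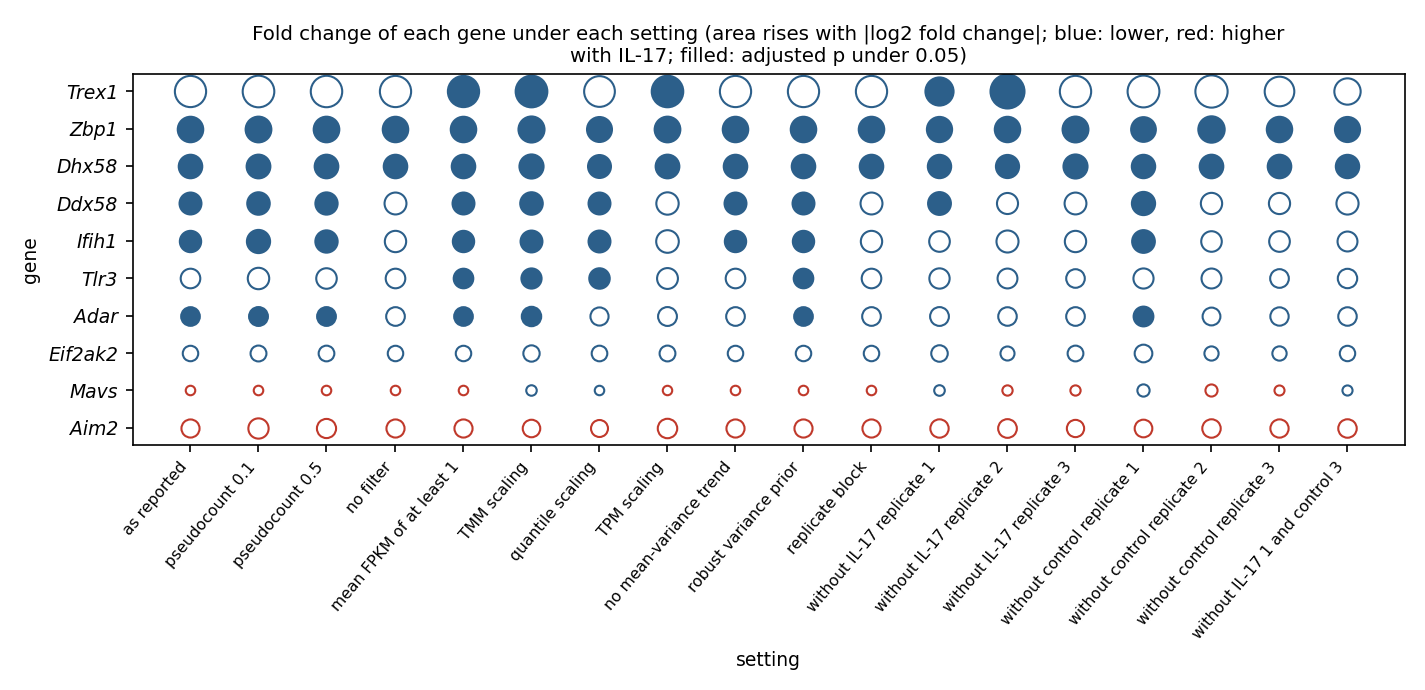
Each gene (rows) under the reported setting and 17 others (columns), with a circle whose area rises with the absolute log2 fold change, blue where IL-17 was lower and red where it was higher, filled where the adjusted p was under 0.05. The rows of Zbp1 and Dhx58 are filled throughout, those of Ddx58, Ifih1 and Adar in part, and those of Eif2ak2, Mavs and Aim2 nowhere.

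By FPKM, which is per length, the order of mean levels with IL-17 was Zbp1 (32.2), Dhx58 (32.1), Trex1 (25.5), Adar (25.0), Mavs (11.8), Ddx58 (11.6), Eif2ak2 (9.29), Ifih1 (3.20), Aim2 (2.94) and Tlr3 (2.89). In controls it was Trex1 (55.9), Zbp1 (53.7), Dhx58 (49.1), Adar (31.8), Ddx58 (16.9), Mavs (11.8), Eif2ak2 (10.8), Ifih1 (4.84), Tlr3 (4.07) and Aim2 (2.18). With IL-17, neighbours in this order overlapped between their libraries except at 3 steps, from Adar to Mavs, from Ddx58 to Eif2ak2 and from Eif2ak2 to Ifih1. In controls Trex1 overlapped Zbp1, Zbp1 overlapped Dhx58, Mavs overlapped Eif2ak2 and Ifih1 overlapped Tlr3, and the other steps were clear of overlap.

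Across the 6 libraries the log2 values of Ddx58 and Adar had a Pearson correlation of 0.98, as did those of Dhx58 and Zbp1 with 0.99, a description in which the group difference is included. Control library 1 was the lowest control for 7 of the 10 genes, among them all 5 with at least 5000 exonic bases (Ddx58, Ifih1, Tlr3, Eif2ak2 and Adar), and the highest for Zbp1 and Dhx58. Over the 4626 tested genes of that length its median deviation from the mean of all libraries was -0.08 on the log2 scale, and over 2459 genes under 1500 bases it was 0.04. The other 5 libraries were between -0.001 and 0.04 for the long genes. Without control library 1, the fold changes of Ddx58, Ifih1 and Adar were -0.58, -0.55 and -0.39 (limma adjusted p = 0.0245 each). The 5 genes with the profile most like the mean standardized profile of the set, out of 10850 considered, were Hsp90ab1, Srsf2, Trim25, Trim26 and Preb, with Pearson correlations over the 6 libraries from 0.993 to 0.995. None of these 5 passed the test.

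Other genes of the same pathways fell in a few places, in lists by role that hold 98 tested genes: 6 fell, 0 rose and 92 did not pass limma, with a median log2 fold change of 0.002. At an unadjusted p under 0.05, 18 of the 98 were lower, where all tested genes gave 7.84%, and 7 were higher, a share not above the 8.89% of all tested genes. Of 16 RIG-I-like receptor adaptors, kinases and transcription factors, 1 fell: Irf7, which drives interferon genes, by 0.74 on the log2 scale (median of the list -0.01). Of 15 genes listed here as brakes on the pathway of these receptors, 2 fell. They were Usp18, the protease that removes ISG15 and blocks the interferon receptor, and Ube2l6, the ISG15 conjugating enzyme. The list is a grouping by role, and a braking effect of either gene was not tested.

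Usp18 was at 66.0, 71.3 and 72.6 FPKM with IL-17, against 108.7, 95.3 and 102.8 FPKM in controls (limma adjusted p = 0.00758). Ube2l6 was at 101.4, 115.1 and 112.9 FPKM with IL-17, against 179.3, 147.5 and 157.4 FPKM in controls (limma adjusted p = 0.0217). Neither pair of groups overlapped, and for both control library 1 was the highest control. Among 9 genes from the interferon receptor to ISGF3, 3 fell, with a list median of -0.10, and Stat2 and Irf1 are described here. Stat2, a subunit of ISGF3, fell by 0.58 on the log2 scale (limma adjusted p = 0.00651). Irf1 was at 18.0, 17.5 and 19.4 FPKM with IL-17, against 23.8, 24.1 and 22.6 FPKM in controls (limma adjusted p = 0.0298).

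In the other 6 lists, 58 genes were tested and 0 passed limma, where 11 had an unadjusted p under 0.05 (7 lower and 4 higher), close to the 16.7% in either direction over all tested genes. These lists hold endosomal receptors and Tlr3 adaptors (10 tested, median 0.001), cytosolic DNA sensing (15, 0.02), nucleic acid clearance (12, 0.03), partners of Zbp1 in cell death (7, 0.06), partners of Aim2 in the inflammasome (6, 0.04), and eIF2 alpha kinases with their counterparts (8, -0.07). Casp4, an inflammasome caspase, was at 2.69, 2.82 and 3.27 FPKM with IL-17, against 2.08, 2.13 and 1.70 FPKM in controls (limma adjusted p = 0.0768). Gsdmd, which encodes the pore-forming gasdermin D, was at 40.7, 40.5 and 39.6 FPKM with IL-17, against 45.6, 45.9 and 45.7 FPKM in controls (0.0952). Pycard, the adaptor that links Aim2 to caspase 1, is named here after its values were seen and was at 0.174, 0.0803 and 0.199 FPKM with IL-17, against 0.178, 0.0517 and 0.0764 FPKM in controls. Tarbp2, a double-stranded RNA binding protein and inhibitor of PKR, was at 10.5, 10.9 and 9.78 FPKM with IL-17, against 13.5, 13.0 and 12.2 FPKM in controls (limma adjusted p = 0.0699).

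Of the remaining genes with the smallest p in their lists, Samhd1, an enzyme that breaks down deoxynucleotides and limits sensing of self nucleic acids, was at 13.0, 12.4 and 11.8 FPKM with IL-17, against 13.6, 16.0 and 16.0 FPKM in controls (limma adjusted p = 0.138). Casp6 was at 2.88, 2.98 and 3.37 FPKM with IL-17, against 2.27, 2.41 and 2.53 FPKM in controls (0.129). The groups of both genes were apart, in opposite directions. Dnase1l1, Ppp1r15a, Ifi205, Lrrfip1, Cnpy3, Lgmn and Fadd had limma adjusted p-values between 0.155 and 0.356, and Ifi205 belongs to a family of similar genes whose reads could be split between copies.

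**Figure D5:**
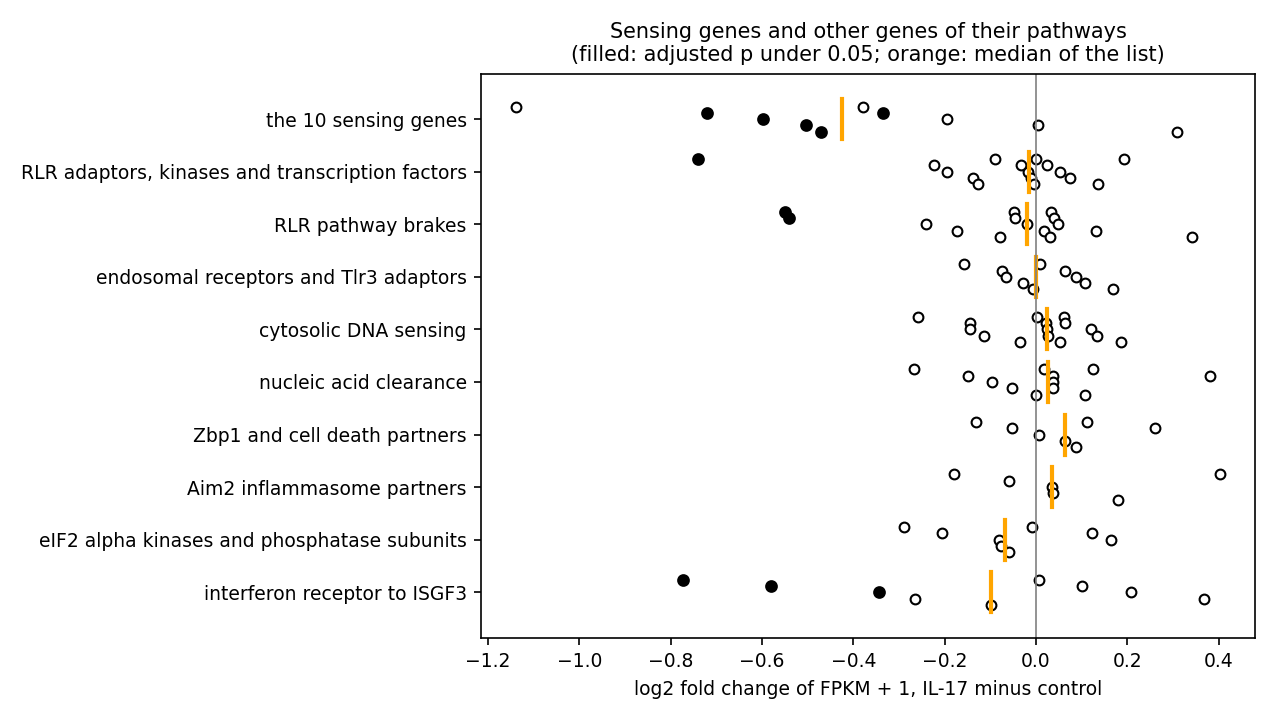
Log2 fold change on the log2(FPKM + 1) scale, IL-17 minus control (horizontal axis), of the 10 genes and of the tested genes in 9 pathway lists (rows); filled points passed an adjusted p under 0.05 and orange bars are list medians. Filled points in the pathway lists are the 6 genes that fell, and the medians of these lists lie between -0.10 and 0.06, against -0.43 for the 10 genes.

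The label of a neuronal line and the makeup of the libraries bear on these values. Neuron markers summed to 19.4 to 21.2 FPKM with IL-17 and 22.2 to 24.0 FPKM in controls, with 3 of the 12 markers found in the table (14 listed) at a mean of 1 FPKM or more. Tubb3, a neuronal tubulin, was at 11.9, 11.1 and 11.8 FPKM with IL-17, against 13.7, 14.8 and 13.4 FPKM in controls (limma adjusted p = 0.0928). Of the 4 neuron markers tested, 3 were lower with IL-17 and 1, Dlg4, was higher, and 0 passed limma. Rbfox3, a marker of mature neurons, was listed at 0 in 5 of 6 libraries. Macrophage and microglia markers summed to 427 to 446 FPKM with IL-17 and 397 to 413 FPKM in controls, with 4 of 10 at 1 FPKM or more. In this list Cd68 held 247 to 285 FPKM with IL-17 and 236 to 254 FPKM in controls, and the leukocyte marker Ptprc 1.02 to 1.08 FPKM with IL-17 and 0.694 to 0.867 FPKM in controls. Csf1r, a receptor of the macrophage lineage named after its values were seen, lay the other way, at 19.7, 19.6 and 18.9 FPKM with IL-17, against 20.5, 22.6 and 21.6 FPKM in controls. None of these 3 passed limma (adjusted p = 0.544 for Cd68, 0.188 for Ptprc and 0.242 for Csf1r).

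Transcripts of lung and liver were uneven between the libraries. Lung epithelium markers (6 of 10 at 1 FPKM or more) summed to 75.9, 65.1 and 170.6 FPKM with IL-17, against 6.18, 5.37 and 58.2 FPKM in controls. Sftpd, Lamp3 and Scgb3a2 were listed at 0 in control libraries 1 and 2. Of the 7 lung markers tested, 6 were higher with IL-17 and 1, Napsa, was lower. Napsa was at 4.05, 4.56 and 4.57 FPKM with IL-17, against 4.86, 4.35 and 4.73 FPKM in controls (limma adjusted p = 0.665). It made up most of the sum in control libraries 1 and 2. Liver markers (10 of 11) summed to 122.9, 17.3 and 28.1 FPKM with IL-17, against 113.6, 97.2 and 65.5 FPKM in controls, with Mup3 listed at 0 in IL-17 libraries 2 and 3. With all libraries, every lung sum with IL-17 lay above every control sum, while the liver sums overlapped. The difference in lung transcripts and the exposure to IL-17 therefore cannot be told apart here. The part of lung and liver transcripts in the changes of the 10 genes was not tested. IL-17 library 1 was the highest of its group for liver markers, and IL-17 library 3 and control library 3 the highest of their groups for lung markers. Dropping IL-17 library 1 and control library 3 does not remove this unevenness, since in the libraries that remain the sums of both marker lists do not overlap between the groups. In that fit 2 of the 10 genes fell, Zbp1 and Dhx58, with log2 fold changes of -0.69 and -0.59, and 3 of the 98 pathway genes. Those of Ddx58, Ifih1 and Adar were then -0.51, -0.40 and -0.33, with limma adjusted p = 0.0861, 0.225 and 0.215 in fits with fewer libraries.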

How the data were processed

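The authors deposited 1 table of FPKM values with 1 column per library and 0 further value columns. Per the submitters' processing notes, fastp, StringTie, edgeR and build mm10 are named, without versions; aligner, annotation and use of strand are not given in the sources used here. Per the labels' protocols, libraries were poly(A)-selected and made with dUTP, which marks strand, but the labels also name a SMARTER kit, so whether opposite-strand genes could be separated is not settled. The table holds no counts. In 10445 genes with 1 transcript, FPKM times kilobases peaked at 0.0572 to 0.0640. If this peak marked 1 fragment, the libraries would have held 15600000 to 17500000 fragments. However, genes piled up at a lower value too in every library. That value held 107 to 133 genes, against 132 to 168 in the fullest bin and a median of 2 per bin. If the lower value marks 1 fragment, the libraries held more fragments than this. The depth of the libraries is therefore not settled. FPKM summed to 365534 to 383093.

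Symbols and coordinates came from GENCODE vM21 (GRCm38, the same assembly as mm10), with 26525 identifiers matched and 70 not. The log2(FPKM + 1) values of 12953 genes with a mean of at least 0.5 FPKM (13642 left out) entered 1 limma fit (version 3.58.1, R 4.3.3) of group alone, with a trend in the variance and Benjamini-Hochberg adjustment. Ratios between genes, and the sum of Trex1 and Atrip, were tested by exact two-sided permutation, and intervals are at 95%. The procedure was tested on simulated data. Whether replicate numbers pair the libraries is not settled, and the reported fit did not pair them. The alternatives changed the pseudocount, filter, scaling, variance model or libraries, or added a replicate block. The 10 genes, the lists, the rules for naming genes (all members, up to 4 called or 2 uncalled genes per list with the smallest p, the 5 most similar profiles, and 6 markers) and the settings were chosen with earlier results of these data known. Not all of the 6 markers are described. Dlg4, Csf1r, Napsa, Sftpd, Lamp3, Scgb3a2 and Mup3 lie outside these rules and were named after their values were seen. ISRE core, GAS and NF-kB motifs were searched in RefSeq promoter windows. The values of 1 pathway gene that fell are not reported here.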

Additional observations from a re-analysis of the deposited data

How the results depend on the processing

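The count of 5 genes that fell became 2 with no filter (which tests more genes) and 2 when IL-17 library 1 and control library 3 were both dropped. It became 3 with TPM scaling, where Trex1 passed beside Zbp1 and Dhx58. It ran from 2 to 5 when 1 library was left out, with Trex1 among the genes counted without IL-17 library 1 or 2. It was 7 under TMM scaling and with a filter at 1 FPKM, where Tlr3 and Trex1 passed too. The pathway count of 6 became 3 without those 2 libraries and ran from 4 to 5 with 1 library left out. Over all tested genes, the 129 lower and 123 higher calls became 72 and 63 with no filter, 202 and 109 under TMM scaling, and 71 higher without those 2 libraries. With 1 library left out they ran from 60 to 140 lower and from 54 to 114 higher. The sign of Mavs turned under TMM scaling (-0.0301), quantile normalization (-0.00411), without both libraries (-0.0200), and within a range of -0.0803 to 0.0767 with 1 library left out. No other gene of the 10 changed sign in any of the 17 settings, and Aim2, Mavs and Eif2ak2 passed in none. The cause of the lost calls was not tested.

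Deviations of same-numbered libraries from their group means had correlations of -0.14, 0.08 and 0.21. With 3 libraries a group, these values cannot settle whether the numbers pair the libraries. With the number as a replicate block, 2 of the 10 genes and 2 of the pathway genes fell, with 39 lower and 41 higher calls over all tested genes. IL-17 library 1 correlated best with control library 2 (0.25). Depth limits the precision of the lowest genes, and no counts were at hand to set counting intervals.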
